A study of Rattus norvegicus with 10 samples.

Results

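The cytosolic ribosome is built from ribosomal RNA and a set of proteins, named Rpl in the large subunit and Rps in the small one, of which each is present in about equal number in the finished particle. The genes examined here encode these proteins and were chosen by symbol alone, from probe sets that the platform's gene table assigns to a single gene, with the brightest probe set standing for each gene. This gave 43 genes of 14217 in the table, 30 of the large and 13 of the small subunit. Messenger RNAs of ribosomal proteins usually begin with a cytosine followed by a run of further pyrimidines, the 5′ terminal oligopyrimidine tract, through which growth signals acting on mTOR control their translation together. They are among the most abundant messenger RNAs of most tissues.

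The 10 livers came from male rats, 13 weeks of age, with 1 array per liver. For 30 days, 5 rats (labelled N-group, here the seasoned diet) ate feed of which instant noodle made up 30% by weight, fat supplying 26% of the energy. The 5 rats labelled C-group, here the control diet, ate the same feed lacking seasonings. Paired feeding held intake at about 60 g per kg of body weight a day in both, and the labels name no strain. The comparison between the diets addresses what the seasonings change in liver expression. The seasoned animals carry the numbers 1, 4, 7, 10 and 13 and the controls 2, 5, 8, 11 and 14. All values are log2 signals as deposited. The array codes place all seasoned livers in one row and all control livers in another, if the letter of the code is a row. Diet and row then cannot be told apart.

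The extraction text names brain, but the levels were those of liver. The mean of 13 hepatocyte markers lay between 13.15 and 13.22 in seasoned and between 13.13 and 13.22 in control livers, while 12 of 13 neuron and glia markers lay under the median signal of all probe sets, 6.48. None of the 9 marker lists (hepatocytes, neurons and glia, macrophages and Kupffer cells, lymphocytes and granulocytes, endothelial, stellate, bile duct and erythroid cells, and the cell cycle) held a gene that passed the test between the diets by limma, and 1 hepatocyte marker had an unadjusted p under 0.05 among varying genes. The mean of 9 macrophage and Kupffer cell markers ranged from 8.03 to 8.64 in seasoned and from 8.16 to 8.44 in control livers. Since these are whole livers, fewer cells of a type and less RNA per cell cannot be told apart.

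With the brightest probe set standing for each gene, the deposited values of the 43 ribosomal protein genes fell into 2 classes with nothing between them. Of the 43 genes, 12 (27.9%) had an SD over the 10 livers above 0.01 and are called varying, against 18.4% of all genes. The other 31 are called near-constant, and all 31 had an SD under 0.001. Rps9 was the varying gene closest to the threshold with an SD of 0.0226, and Rpl18 the near-constant gene closest to it with 0.000998. The varying genes were 6 of the large subunit (Rpl4, Rpl7a, Rpl11, Rpl22, Rpl27a and Rpl35) and 6 of the small subunit (Rps3, Rps6, Rps9, Rps15, Rps15a and Rps23). Their median SD was 0.11, against 0.187 over the 2613 varying genes of the table. Partners in the same complex could fall into different classes of deposited values. Rpl11 varied while Rpl5, with which it binds 5S ribosomal RNA in one small particle, was near-constant with an SD of 6.27e-05. Of all genes, 81.6% were near-constant, and the class does not show that a transcript was stable.

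**Figure D1:**
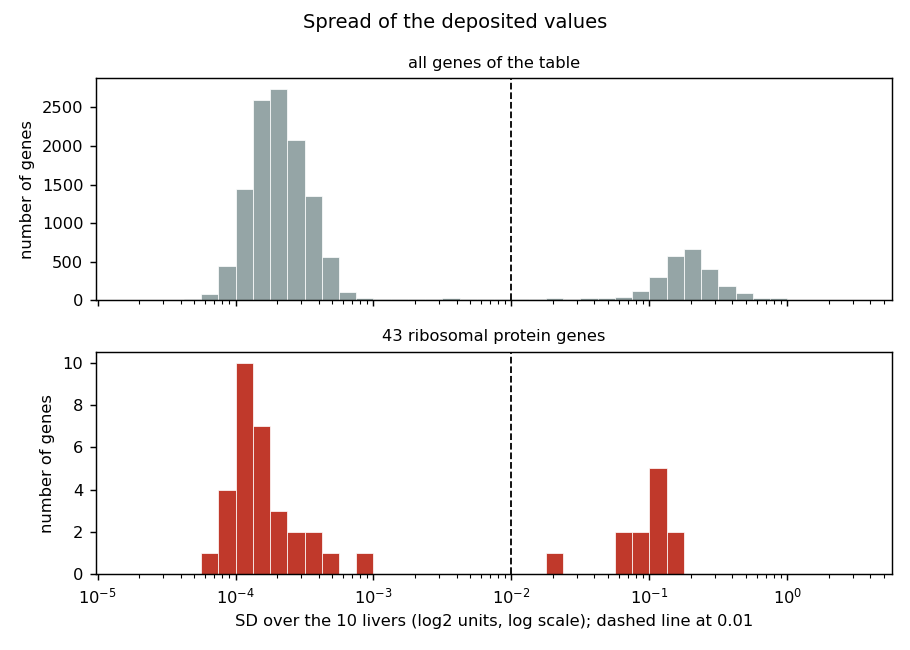
Histograms of the SD over the 10 livers (x axis, log2 units on a log scale) for all 14217 genes (top) and the 43 ribosomal protein genes (bottom); the y axis counts genes and the dashed line marks 0.01. The 31 near-constant members lie under 0.001 and the 12 varying members between 0.0226 and 0.156.

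The annotated starts of these genes were searched for the family's shared sequence feature, which some of them showed. RefSeq's GRCr8 table of gene starts held 36 of the 43 genes. The windows below run from 20 bases before to 20 bases after the annotated start, 5′ to 3′ on the gene's strand, with the longest unbroken run of C and T in capitals. The 11 varying genes that matched are shown because the results turn on them.
Rpl4, chr8:73566457-73566496, plus strand: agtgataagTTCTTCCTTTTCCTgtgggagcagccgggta
Rpl7a, chr3:30637116-30637155, plus strand: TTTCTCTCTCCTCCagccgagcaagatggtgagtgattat
Rpl11, chr5:153560783-153560822, minus strand: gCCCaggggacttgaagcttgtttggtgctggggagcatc
Rpl22, chr5:168117941-168117980, plus strand: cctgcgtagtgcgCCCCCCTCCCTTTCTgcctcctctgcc
Rpl27a, chr1:172974553-172974592, plus strand: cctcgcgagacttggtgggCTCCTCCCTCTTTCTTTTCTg
Rpl35, chr3:43165902-43165941, minus strand: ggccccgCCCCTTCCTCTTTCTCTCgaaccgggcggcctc
Rps3, chr1:163195757-163195796, minus strand: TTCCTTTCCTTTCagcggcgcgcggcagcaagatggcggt
Rps6, chr5:106420521-106420560, minus strand: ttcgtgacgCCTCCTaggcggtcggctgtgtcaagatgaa
Rps15, chr7:10068096-10068135, minus strand: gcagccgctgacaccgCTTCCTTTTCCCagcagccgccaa
Rps15a, chr1:181860265-181860304, minus strand: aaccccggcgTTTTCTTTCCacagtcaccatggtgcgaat
Rps23, chr2:23814497-23814536, plus strand: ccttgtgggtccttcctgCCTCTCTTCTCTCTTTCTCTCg

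A run of at least 8 bases that were C or T, on the strand of the gene, was found in 9 of these 11 windows (81.8%), in 15 of 25 near-constant genes (60%), and in 15.5% of the 27457 genes of the table. The median longest run was 14 bases in the varying, 9 in the near-constant and 5 in all genes. A start on C with 4 further C or T directly after it was annotated in 3 of the 11 and 8 of the 25, against 2.63% of all genes. The runs of Rpl7a, Rps3 and Rps15a ended before the annotated start, and Rpl11 and Rps6 had no run longer than 3 and 6 bases. The annotated start need not be the one used in liver. Of the near-constant genes, Rpl34 and Rpl19 had such a run and Rpl41 did not, so both classes held genes with and without it:
Rpl19, chr10:83519044-83519083, plus strand: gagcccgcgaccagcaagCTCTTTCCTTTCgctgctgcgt
Rpl34, chr2:221962264-221962303, minus strand: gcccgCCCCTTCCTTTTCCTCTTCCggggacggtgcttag
Rpl41, chr7:1563478-1563517, minus strand: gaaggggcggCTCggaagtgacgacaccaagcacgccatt

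Between the diets, all 12 varying genes had a higher mean in the seasoned livers, by small amounts, with Rps9 alone turning below 0 when each array was centred on its varying genes, and 0 passed the test. Differences on the log2 scale ran from 0.02 for Rps9 to 0.14 for Rps3, and the highest 95% bound for any of the 12 was 0.35. Of all 43 members, 0 passed an adjusted p of 0.05 by limma over all genes, where 0% of 14217 genes did, and 8 had an unadjusted p under 0.05, against 4.71% of all genes. Of these 8, 7 were near-constant, with log2 differences of at most 0.00039, and 1 was varying. In the fit of the 2613 varying genes alone, 0 of the 12 passed, where 0.153% did, and 1 had an unadjusted p under 0.05, against 12.1%. The diets overlapped in every one of the 43 genes, while the diets did not overlap in 0.879% of all genes and in 2.72% of varying genes. A difference above 0 was found in 40 of the 43 members, against 54.2% of all genes. It was found in 12 of 12 varying members, against 57.3% of varying genes, and the medians were 0.089 and 0.017. The 12 genes moved together from liver to liver, so they are not 12 separate observations.

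Among the large subunit genes, Rpl11 had the smallest p. Rpl11 encodes a protein that also binds and restrains Mdm2, the ubiquitin ligase of p53, when ribosome assembly fails. Its signal was 11.47, 11.35, 11.44, 11.37 and 11.45 in seasoned animals 1, 4, 7, 10 and 13, and 11.31, 11.38, 11.23, 11.30 and 11.25 in control animals 2, 5, 8, 11 and 14. Control animal 5 lay above seasoned animals 4 and 10, and the other controls lay under all seasoned livers. The log2 difference was 0.12 ± 0.05 (SE in the fit of varying genes, 5 livers per group), with an adjusted p of 0.383 by limma among varying genes and 0.72 over all genes.

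Rpl35, a protein at the exit of the tunnel through which the nascent chain leaves, was at 11.53, 11.44, 11.52, 11.34 and 11.47 in the seasoned and at 11.41, 11.50, 11.20, 11.27 and 11.28 in the control livers, in the same animal order. Controls 2 and 5 lay within the seasoned range, and controls 8, 11 and 14 lay under it. The difference was 0.13 ± 0.07 (adjusted p = 0.541 by limma among varying genes).

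Rpl27a, another protein of the large subunit, was at 12.02, 11.88, 11.94, 11.84 and 11.93 in the seasoned and at 11.94, 11.97, 11.69, 11.76 and 11.74 in the control livers. The division among the controls was the same, with animals 2 and 5 inside the seasoned range and the other 3 under it. The difference was 0.10 ± 0.07 (adjusted p = 0.662 by limma among varying genes). For Rpl7a, Rpl22, whose protein can be replaced by a close paralog, and Rpl4, which lines the exit tunnel, the differences were 0.07, 0.07 and 0.05.

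Among the small subunit genes, Rps3 had the largest difference. Rps3 encodes a protein at the entry of the mRNA channel. Its signal was 10.77, 10.62, 10.74, 10.46 and 10.88 in the seasoned and 10.62, 10.70, 10.36, 10.49 and 10.59 in the control livers. Seasoned animal 10 lay under 4 of the 5 controls. The difference was 0.14 ± 0.09 (adjusted p = 0.629 by limma among varying genes).

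Rps6, the substrate of the S6 kinases downstream of mTOR, differed by 0.11 ± 0.08, and Rps15a by 0.11 ± 0.09. Rps15, Rps23, a protein of the decoding centre, and Rps9 differed by 0.08, 0.06 and 0.02. With the arrays centred on the median of their varying genes, Rps9 stood at -0.0035 and the other 11 above 0. The 6 small subunit and the 6 large subunit genes had the same median difference, 0.09.

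**Figure D2:**
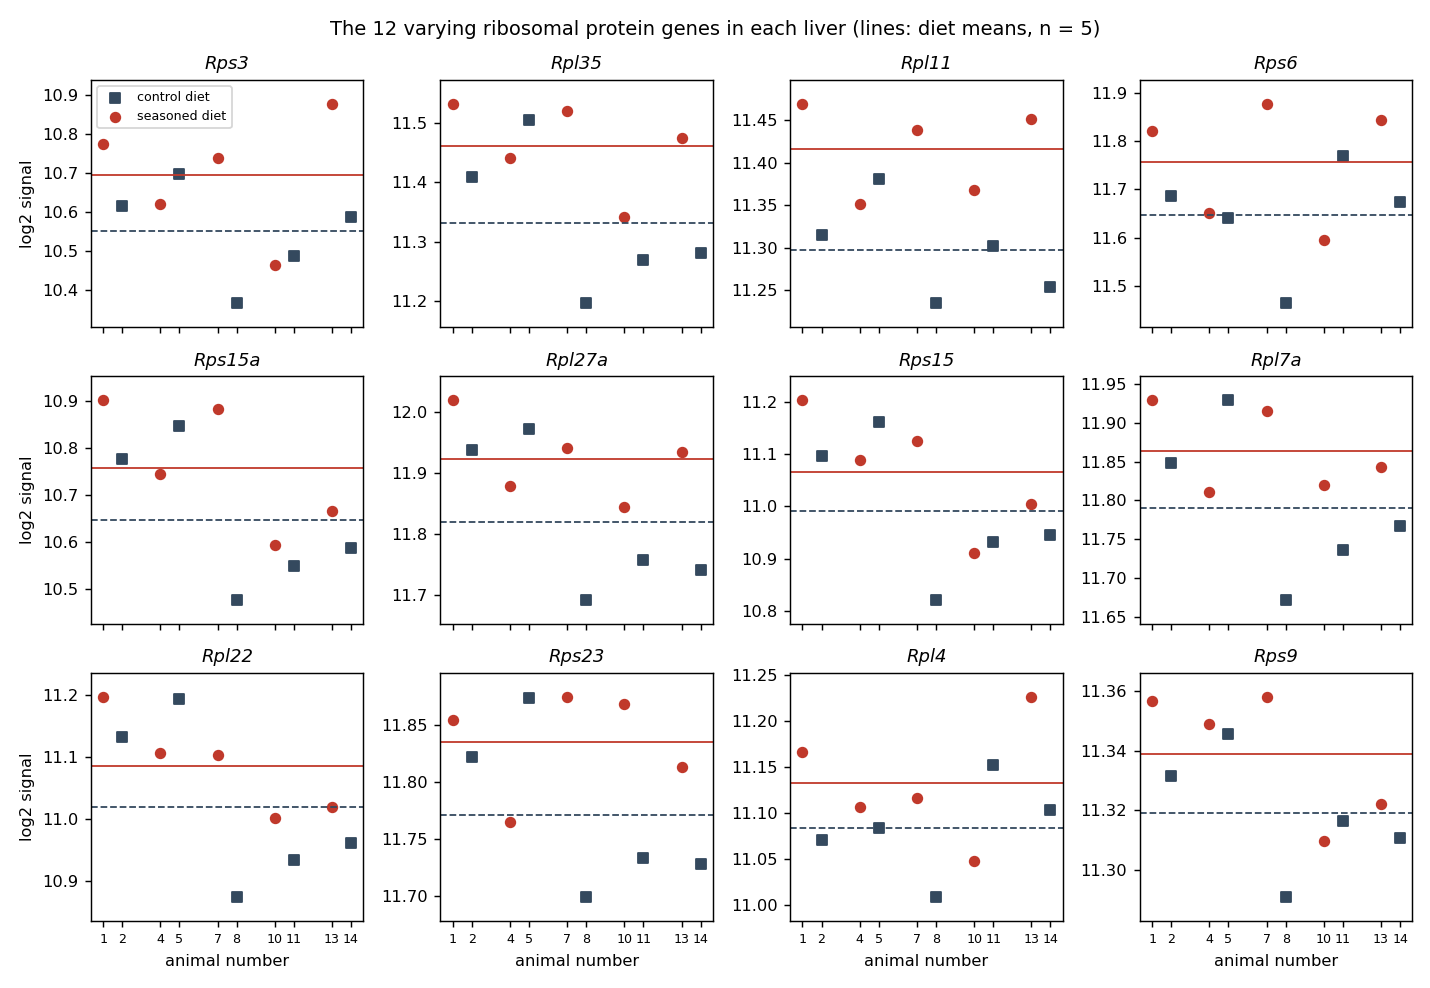
Log2 signal (y axis) of the 12 varying ribosomal protein genes in each liver, by animal number (x axis); red circles are seasoned livers, dark squares control livers, and the solid and dashed lines their means (n = 5 each). The seasoned mean is the higher one in all 12 panels (Rps9 turns below 0 after centring on varying genes), the diets overlap in each, and control animal 8 is the lowest point in each.

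**Figure D3:**
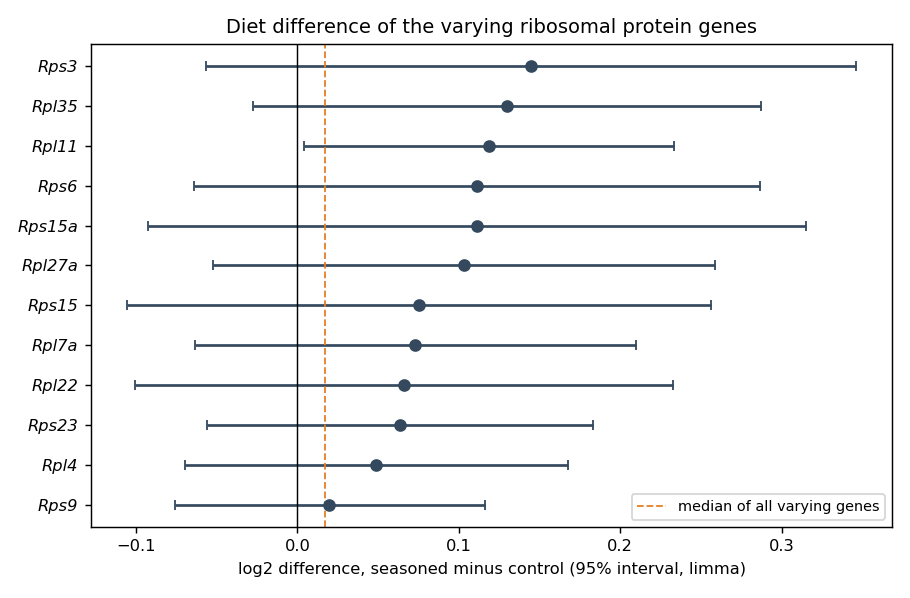
Log2 difference between the seasoned and the control mean (x axis) with its 95% interval by limma for the 12 varying genes (y axis, ordered by size); the dashed line is the median difference of the 2613 varying genes. All 12 points lie above 0 (Rps9 at -0.0035 after centring on varying genes), and all intervals but that of Rpl11 include 0.

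A single liver set the lower end of the family. Control animal 8 held the lowest value of the 10 livers in 12 of the 12 varying members, whereas it was the lowest in 10.4% of the 2613 varying genes. The liver that was most often lowest among the varying genes was control animal 11 (31.8%), and it was the lowest for 0 of the 12 members. Averaged over the 12 genes and set relative to the control mean of each, the livers stood at 0.16, 0.05, 0.14, -0.01 and 0.10 in seasoned animals 1, 4, 7, 10 and 13, and at 0.06, 0.11, -0.12, -0.03 and -0.03 in control animals 2, 5, 8, 11 and 14. Over all varying genes control animal 8 stood at -0.012. Without it, all 12 differences between the diets were still above 0 in the deposited values, and their median went from 0.089 to 0.055, with 55.5% of varying genes above 0. Rpl22 then differed by 0.03, Rps15 by 0.033, Rpl7a by 0.043, Rps6 by 0.065, Rps15a by 0.068 and Rps9 by 0.013. For Rpl4 the lowest value was 0.025, without seasoned animal 13. Without control animal 5, usually the highest control, Rpl22 differed by 0.11 and Rps15 by 0.12.

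**Figure D4:**
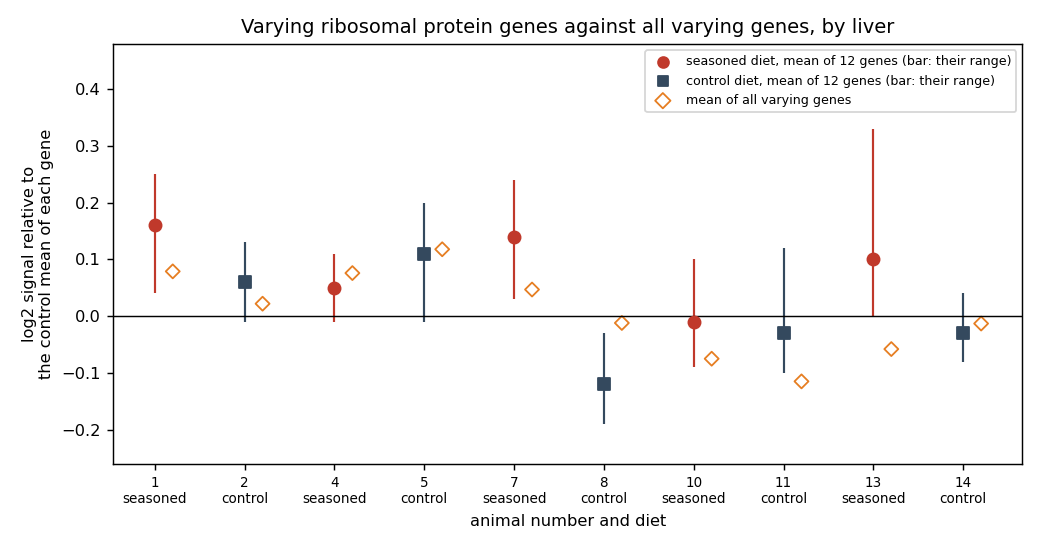
Log2 signal relative to the control mean of each gene (y axis) in each liver, ordered by animal number (x axis); filled symbols are the mean of the 12 varying ribosomal protein genes, with a bar from their lowest to their highest member, and open diamonds the mean of all 2613 varying genes. Control animal 8 is at -0.12 for the ribosomal genes and at -0.012 for all varying genes.

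The members' slopes on animal number were read against those of all varying genes. In the fit with diet and animal number, the signal fell with animal number in 10 of 12 members, as it did in 73.9% of varying genes. By limma 0 of the 12 slopes passed among varying genes, where 6.7% did. An unadjusted p under 0.05 was found for 3 of the 12, against 33.9% of varying genes. The 3 were Rps15a (-0.0216 ± 0.0084 log2 units per animal number, adjusted p = 0.114 by limma), Rpl22 (-0.0177 ± 0.0067, adjusted p = 0.104) and Rps15 (-0.0184 ± 0.0076, adjusted p = 0.126). The array position rises with the animal number within each diet, so the 2 cannot be told apart. Rps15a was at 10.90, 10.74, 10.88, 10.59 and 10.67 in the seasoned and at 10.78, 10.85, 10.48, 10.55 and 10.59 in the control livers, so that in both diets the last 2 animals lay under the first 2.

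Within animals 1 to 7 (3 seasoned, 2 control) 8 of the 12 members were higher in the seasoned livers, with a median difference of 0.02. Within animals 8 to 14 (2 seasoned, 3 control) 12 of 12 were, with a median of 0.10. The controls of this part include animal 8, the lowest liver in all 12 members. With this division as a block the median over the 12 was 0.057 and 0 members passed by limma, the smallest adjusted p among varying genes being 0.289, where 0.459% of varying genes passed. With animal number as a covariate the median was 0.077 and 0 members passed, the smallest adjusted p among varying genes being 0.32 by limma, where 0.344% of varying genes passed. The division of the animals was taken from earlier results of these data and is no batch that the labels name.

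The varying members went up and down together from liver to liver. With each gene centred on its diet means, the 66 pairs of members had a median Pearson r of 0.732 over the 10 livers, and 77.3% of them were above 0.5, against a median of 0.227 and 29.2% over all pairs of varying genes. All these points share the same 10 arrays and their normalization. Rps15 and Rps15a were the closest pair (0.978). Rps15a, Rps15, Rpl22, Rpl35, Rpl7a, Rpl27a and Rps9 followed one another at 0.79 or more. Rpl4 and Rps6 formed a pair of their own (0.81), and Rps3 stood between them and the others, at 0.72 with Rpl4 and 0.73 with Rps6 but at 0.825 with Rpl35 and 0.802 with Rpl11, while Rpl4 and Rps23 had an r of -0.061, or -0.375 without control animal 8. In Rpl4 and Rps6 control animal 11 was the highest of the controls, at 11.15 and 11.77, where in Rpl35 and Rps15 it was among the lower 3. The subunit made little difference: the median r was 0.705 within and 0.747 across the subunits. Without control animal 8 the median over the 66 pairs was 0.654.

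**Figure D5:**
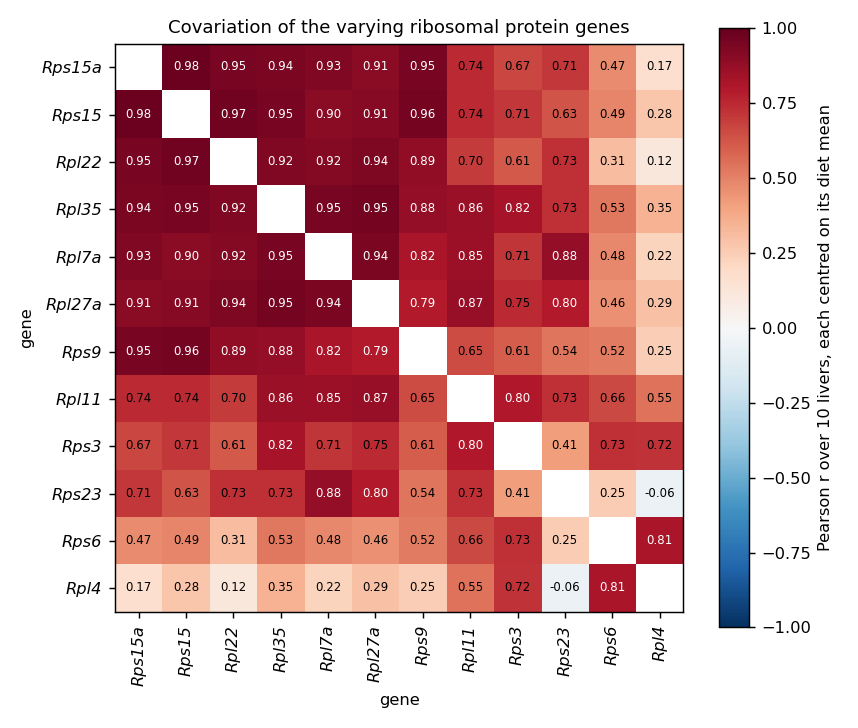
Pearson r between the 12 varying genes (both axes, ordered by their median r with the others) over the 10 livers, each gene centred on its diet means. A block of 7 genes from Rps15a to Rps9 has values from 0.79 to 0.98, and Rps6 and Rpl4 correlate at 0.81 with each other but at 0.53 or less with each of those 7.

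The near-constant members carried a related liver pattern at a far smaller scale. How the authors summarised the probe sets is not stated, so the small spread is a property of the deposited values and does not show that these transcripts were stable. Their differences between the diets ran from -5.1e-05 to 0.001 on the log2 scale, the largest being a ratio of 1.0007, and 28 of the 31 were above 0, against 53.5% of near-constant genes. Rpl7, Rpl19 and Rpl14 had the smallest p, with differences of 0.00014, 0.00015 and 0.00039 and adjusted p-values of 0.834, 0.918 and 0.999 by limma over all genes. With the summary method not stated, differences this small were not read as changes in the amount of transcript.

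Rpl14, a protein of the large subunit, was at 10.06981, 10.06931, 10.06966, 10.06923 and 10.06947 in seasoned animals 1, 4, 7, 10 and 13, and at 10.06924, 10.06941, 10.06869, 10.06907 and 10.06914 in the controls. The livers stood in nearly the order of the varying genes, with seasoned animals 1 and 7 at the top and control animal 8 at the bottom. Centred on the diets, Rpl14 had an r of 0.958 with the mean of the 12 varying members over the 10 livers. The median r over the 31 near-constant members was 0.649, and 17 of them were above 0.5, against a median of 0.019 and 20.3% over all near-constant genes. Control animal 8 held the lowest value in 18 of the 31 (58.1%), against 7.27% of near-constant genes.

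The members with the lowest r were of several kinds. The probe sets of Rpl28, Rpl30, Rps13 and Rpl3l lay under the median signal of all probe sets (6.48), at 5.67, 6.13, 6.07 and 5.99. They had r between -0.649 and 0.056. Whether these dim probe sets read the full level of their transcripts was not tested. Rpl3l is the paralog of Rpl3 made in heart and skeletal muscle, and Rpl3 itself had an r of 0.71. Rps27l, a p53-responsive paralog of Rps27, had an r of -0.649. Rpl21 (-0.442) and Rpl13a (-0.365) also ran against the mean, with bright signals of 11.07 and 11.23. Rplp0, the base of the stalk that recruits elongation factors and the only stalk gene among the 43, had an r of 0.686, and Rpl7, which shares only its name with the varying Rpl7a, one of 0.784. Ribosomal protein genes have many processed copies in mammalian genomes, so a probe set may also read a near-identical transcript.

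A further probe set was present for 4 members. Those of Rpl3, Rpl14 and Rps24 were near-constant too, with SDs of 0.000261, 0.000162 and 0.00403. That of Rpl7 varied (SD 0.294) where the brighter one did not. It was at 6.80, 7.80, 7.74, 7.80 and 7.62 in the seasoned and at 7.59, 7.80, 7.65, 7.63 and 7.58 in the control livers. Seasoned animal 1 was far under all other livers, which lay close together. The difference between the diets was -0.0974 with this animal and 0.0902 without it.

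Other genes of translation were set beside the family, each list by its varying members. By limma 0 genes of these lists passed, over all genes or among varying genes. In the fit of varying genes, an unadjusted p under 0.05 was found for 3 of the 7 varying genes of ribosome assembly, against 12.1% of all varying genes. The other lists held no such gene in that fit. Such p-values were not counted for the lists in the fit of all genes, where that of Rack1 was 0.029 by limma. Counts above 0 stand beside 57.3% of varying genes above 0. Of the ribosomal protein genes that the symbol rule does not take, 3 were measured and 2 varied: Rpsa, a small subunit protein once known as laminin receptor, differed by 0.16 ± 0.11, or by 0.08 without control animal 8, and Rack1, a scaffold on the small subunit, by 0.04 ± 0.04. Of 10 elongation factor genes 4 varied, all 4 above 0 with a median of 0.067, among them Eef1g (0.17 ± 0.09) and Eef1d (0.09 ± 0.07), subunits of the exchange factor for eEF1A. Of 34 initiation factor genes 11 varied, 6 of them above 0 with a median of 0.004, and the smallest p were those of the eIF3 subunits Eif3l (0.11 ± 0.07) and Eif3i (0.06 ± 0.06).

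Mitochondrial ribosomal proteins, which belong to a separate ribosome, numbered 73, of which 11 varied and 10 of these were above 0, with a median of 0.033. Mrps7 and Mrpl37 differed by 0.18 ± 0.09 and 0.16 ± 0.12. Of 54 genes of ribosome assembly 7 varied, 4 of them above 0, with a median of 0.004; Nop58, a core protein of box C/D small nucleolar particles, differed by 0.21 ± 0.08 and Tsr1, which acts in maturation of the small subunit, by 0.27 ± 0.11 (adjusted p = 0.296 and 0.312 by limma among varying genes). Of 14 RNA polymerase I genes 2 varied, Polr1c (0.02 ± 0.08, or -0.04 without control animal 11) and Polr1d (-0.06 ± 0.07). Of 22 regulators of growth and mTOR signalling 7 varied, 3 of them above 0, with a median of -0.009. Eif4ebp3, an inhibitor of cap-dependent initiation, differed by -0.34 ± 0.18 (adjusted p = 0.53 by limma among varying genes), or by -0.17 without control animal 8, its highest liver, and Sesn1, a sestrin that restrains mTOR complex 1, by 0.27 ± 0.18. The signal of Sesn1 fell with animal number in both diets (slope -0.0633 ± 0.0082, adjusted p = 0.0146 by limma among varying genes).

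How closely the lists followed the family across livers is given as medians over 2 to 11 varying genes, and differences between lists were not tested. The median r of their varying members with the mean of the 12 was 0.91 for the 2 further ribosomal protein genes, 0.78 for elongation factors, 0.73 for mitochondrial ribosomal proteins, 0.58 for initiation factors, 0.46 for RNA polymerase I, 0.27 for ribosome assembly and 0.17 for the mTOR list, against 0.375 over the other varying genes. The 8 varying macrophage and Kupffer cell markers had a median r of 0.59 with it, those of hepatocytes one of -0.11 and those of stellate cells one of -0.32. The part of cell makeup in the spread between livers was not tested.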

How the data were processed

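Per the labels' protocols, 100 ng of total RNA per liver went into the biotin-labelled cRNA. The authors deposited 1 log2 signal per probe set and array; the summary and normalization are not given in the sources used here, and the log base was read from the values (4.79 to 14.34). Of 31099 probe sets, 57 controls were left out, 20826 had exactly 1 gene, 436 several and 9780 none in the platform table; the brightest probe set stood for each gene. Dim probe sets were kept. Depth does not apply to arrays, and their number limits the precision.

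Diets were compared with limma 3.58.1 (lmFit, eBayes, two-sided) in R 4.3.3, over all genes and over genes with an SD above 0.01, with Benjamini-Hochberg adjustment at 0.05. The fits were tested on simulated data with planted changes larger than any difference of the varying members and with genes drawn independently. That test does not show whether differences as small as theirs would be found. The titles number the animals, so p-values rest on the spread between rats. Limma draws each gene's variance toward that of the other genes in the fit. For genes with little spread, the SE among varying genes therefore exceeds their own spread between rats. That of Rps9 was 0.0432 in the fit of varying genes and 0.013 in the fit of all genes. Every varying member is named; values by liver are given for the 4 with the smallest p; of near-constant members the 3 with the smallest p and the paralogs are named, and of other lists the 2 varying genes with the smallest p. Rps15a, Rpl14, Rpl5, Rpl18, Rpl21, Rpl28, Rpl30, Rps13, Rpl13a, Rpl34, Rpl41 and the further probe set of Rpl7 were singled out after their values or windows had been seen. The slope on animal number, the correlations of near-constant genes and the run of 8 bases were also added then. Members and lists were chosen with earlier results of these data known.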

Additional observations from a re-analysis of the deposited data

Results flagged for a closer look

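Among 54 groups of 5 livers (27 genes or probe sets in each diet), 1 had a liver standing apart, its distance from the next liver being over 0.71 of the range of the group. It was seasoned animal 1 in the further probe set of Rpl7, which stood low with a ratio of 0.8233. About 1 in 20 groups, here 2.7, would do so by chance. Control animal 8, the lowest liver in all 12 varying members, did not exceed this ratio in any of them. Near-constant members were not examined in this way.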

How the results depend on the processing

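No paired analysis was possible because the labels give the diets no common animal numbers; under an assumed pairing of neighbouring numbers 0 members passed. The count of members passing was 0 in the deposited values and under each alternative run (repeated quantile normalization, centring, a filter on dim genes, other probe set rules, updated symbols, trend and robust variance, other SD thresholds, animal number as covariate, the block of animals, and each liver left out). The median difference of the varying members stayed above 0, from 0.0554 without control animal 8 to 0.119 without seasoned animal 10. Of 276 differences of the 12 varying members under the alternatives, 1 changed sign. It was that of Rps9, at -0.0035 after centring on varying genes, with an adjusted p of 0.959 by limma. That centring took out a shift of 0.02. Many of the 276 differences could not change. Filtering dim genes, probe set rules, updated symbols, variance options, SD thresholds, fitting varying genes alone and the assumed pairing leave them as they are. The 276 are thus not all separate checks. Taking the probe set with the largest SD, or the mean of a gene's probe sets, added Rpl7 as a varying member, at -0.0974 and -0.0486, and 12 of 13 were then above 0. Leaving out each liver, added after seeing the data, gave a median correlation between 0.654 and 0.839. With no detection calls used, the level of dim probe sets has no floor here.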

Other observations

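Ribosomal protein genes whose probe sets are assigned to several genes in the platform table stood outside the comparison. There were 33 such probe sets with a symbol of the family among their genes, and 27 symbols of the family appeared there only. The deposited values of 14 varied and those of 19 were near-constant. All 14 varying probe sets had a higher mean in the seasoned livers, against 57.3% of varying genes. Their differences ran from 0.01 to 0.15 with a median of 0.07. The diets overlapped in each, while they did not overlap in 2.72% of varying genes. The 19 near-constant ones were also higher in the seasoned livers, all of them, against 53.5% of near-constant genes. Differences of near-constant probe sets were not read as changes in the amount of transcript. The 33 probe sets share the 10 arrays with the genes reported above, so they are no separate evidence.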
